A study of Homo sapiens with 8 samples.

Results

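The regions described here are the H3K27ac peaks that lie between genes. They were chosen by position alone, as peaks under 10000 bp long that overlap no gene they were paired with and come no closer than 1000 bp to the start of one. Of 126470 peaks of ChIP-seq (chromatin immunoprecipitation sequencing) 22568 met this rule, or 17.8%, and they are called intergenic peaks below. The study asked how lung cancer cells with the EML4-ALK fusion become resistant to ALK inhibitors, and compared naive H3122 cells with lines derived from them by gradual exposure to rising inhibitor concentrations. H3122 is a human lung adenocarcinoma cell line. The resistant lines were erCriz0, evolved in 0.5 µM crizotinib, erAlec0, evolved in 2 µM alectinib, and erLor0, evolved in 2 µM lorlatinib, and the labels give 0.1% DMSO for all samples, naive cells included. Each line is 1 bulk population that gave 1 ChIP-seq library and 1 RNA library, so no replicate check of a difference was possible, no test was made and no p-value is given. By the study's methods, RNA was taken after the cells had grown for a time without inhibitor, which its ChIP-seq methods do not state for the chromatin. The samples erCriz1, erLor1, a lorlatinib-treated culture and pooled input DNA were not analysed here.

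Acetylation of lysine 27 on histone H3 (H3K27ac) marks active enhancers and active promoters. Enhancers are stretches of DNA that bind transcription factors and raise the transcription of a gene, often one that is not the nearest. AP-1 factors, dimers of FOS and JUN family proteins, bind the DNA motif TGANTCA, are induced by growth factor and stress signalling, and are found at many enhancers of epithelial cells. Peaks near gene starts mostly reflect promoters, so intergenic peaks are the part of an H3K27ac profile where distal enhancers are sought.

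Values are rlog values, a log2 scale on which the authors had placed read counts after normalization across the 4 libraries, and on which features with few reads are drawn toward their mean. Changes are differences in rlog from naive cells, and all 3 comparisons share the 1 naive library. Peaks are counted as higher or lower at a change of at least 1, a factor of 2, the limit that the study's methods set for genes. Because input DNA was not subtracted, extra or lost copies of a region also move its peaks. The RNA held epithelial markers that the tissue calls for. Of a list of 10 genes, 9 (EPCAM, keratins and CDH1 among them) reached an rlog of 4.64 in at least 1 library. NAPSA lay between 3.53 and 4.23. This limit is the log2 of 25, the reads that the study's methods set as a minimum for a gene. It stands in for that minimum, as an rlog value is not a count of reads. The 9 include ALK, the kinase gene of the fusion rather than a marker of epithelium. ALK RNA was 8.18 in naive and 10.65 in erCriz0 cells, with 9.58 in erAlec0 and 8.10 in erLor0. The summed normalized level of that list ran from 68656 in erCriz0 to 97266 in erAlec0. None of 6 leukocyte markers reached an rlog of 4.64, and PTPRC was at 0 in all 4 libraries. COL1A1 was the one fibroblast marker of 5 with values that did, and CDH5 and KDR were the 2 endothelial markers of 5. As the samples were bulk, fewer cells with a mark and less of it per cell cannot be told apart.

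The sequences below are the central 300 bp of 7 intergenic peaks on which the results turn, on the plus strand of hg38, with matches to the AP-1 motif in capitals. The first 4 rose in erCriz0 and hold a match, and they show the letter forms it takes.

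RN7SKP104 (chr7:97602351-97602650): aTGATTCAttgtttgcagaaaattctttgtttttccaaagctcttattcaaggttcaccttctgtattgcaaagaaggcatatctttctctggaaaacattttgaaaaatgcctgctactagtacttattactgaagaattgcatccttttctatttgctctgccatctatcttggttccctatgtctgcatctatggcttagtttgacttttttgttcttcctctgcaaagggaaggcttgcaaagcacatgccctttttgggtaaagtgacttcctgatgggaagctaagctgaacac
RN7SL401P (chr18:73760037-73760336): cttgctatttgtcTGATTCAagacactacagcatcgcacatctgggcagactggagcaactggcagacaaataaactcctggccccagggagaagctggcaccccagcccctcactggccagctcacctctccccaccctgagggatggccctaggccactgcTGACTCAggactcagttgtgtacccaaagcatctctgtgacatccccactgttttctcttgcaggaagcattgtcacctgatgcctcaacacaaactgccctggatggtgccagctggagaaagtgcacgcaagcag
TLR12P (chr1:33460283-33460582): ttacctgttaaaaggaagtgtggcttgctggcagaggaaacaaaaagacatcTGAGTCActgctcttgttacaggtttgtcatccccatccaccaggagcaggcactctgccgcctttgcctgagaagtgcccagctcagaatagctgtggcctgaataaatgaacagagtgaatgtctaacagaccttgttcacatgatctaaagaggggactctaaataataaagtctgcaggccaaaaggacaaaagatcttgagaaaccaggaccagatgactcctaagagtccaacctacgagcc
RGS4 (chr1:163056872-163057171): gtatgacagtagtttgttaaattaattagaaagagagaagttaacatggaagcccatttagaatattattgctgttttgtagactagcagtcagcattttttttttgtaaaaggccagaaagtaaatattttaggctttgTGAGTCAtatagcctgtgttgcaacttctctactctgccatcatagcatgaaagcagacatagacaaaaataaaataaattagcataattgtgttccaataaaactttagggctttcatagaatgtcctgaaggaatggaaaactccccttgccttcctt

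The next 3 are among the peaks with the largest changes in erAlec0 and erLor0. The RPS26P24 peak rose in erAlec0, and the one near RIMBP2 had the largest fall in erAlec0 and erLor0. RPL37P21 names a peak that fell in erLor0 and carries an AP-1 match.

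RPS26P24 (chr4:57370199-57370498): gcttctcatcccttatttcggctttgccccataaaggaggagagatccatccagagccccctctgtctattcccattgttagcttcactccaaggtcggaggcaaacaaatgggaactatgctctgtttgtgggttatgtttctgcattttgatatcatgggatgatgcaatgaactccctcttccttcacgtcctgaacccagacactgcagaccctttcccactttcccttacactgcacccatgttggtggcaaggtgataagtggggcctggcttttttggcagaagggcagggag
ENSG00000279478, near RIMBP2 (chr12:130389388-130389687): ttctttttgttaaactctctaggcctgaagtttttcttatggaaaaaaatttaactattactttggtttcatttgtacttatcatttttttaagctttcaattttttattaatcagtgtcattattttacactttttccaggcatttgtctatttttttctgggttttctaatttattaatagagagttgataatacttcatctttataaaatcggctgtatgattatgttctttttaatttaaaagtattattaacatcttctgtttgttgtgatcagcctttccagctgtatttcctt
RPL37P21 (chr13:68346064-68346363): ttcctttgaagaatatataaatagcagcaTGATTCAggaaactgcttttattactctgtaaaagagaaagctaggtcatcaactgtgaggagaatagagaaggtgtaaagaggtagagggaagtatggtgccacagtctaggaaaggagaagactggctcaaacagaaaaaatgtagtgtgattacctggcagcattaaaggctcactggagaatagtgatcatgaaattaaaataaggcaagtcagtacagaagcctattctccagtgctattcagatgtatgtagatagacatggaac

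Intergenic peaks were mostly short and weak. Their length ran from 191 to 9986 bp with a median of 457 bp, 12183 were under 500 bp and 2525 reached 2000 bp. An rlog of 3.91 was reached in at least 1 library by 14195 of them (62.9%), against 68.3% of all peaks. This is the log2 of 15, the reads that the study's methods set as a minimum for a peak. An rlog value is not a count of reads, so peaks below 3.91 need not have failed that minimum. In 389 peaks all 4 values were 0. The median rlog of intergenic peaks was 3.85 in naive and 3.73 in erCriz0 cells, with 3.83 in erAlec0 and 3.72 in erLor0. It was close to that of the 81257 peaks inside paired genes, 3.91 in naive cells, which have nearly the same median length of 458 bp. Peaks at the starts of paired genes, 21027 in number and longer with a median of 1366 bp, had a median of 6.21 in naive cells. These levels are not per length, so they also carry the length of the peaks.

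The nearest paired gene lay at a median of 5988 bp and at most 19999 bp, since peaks and genes were paired within 20 kb. The peak lay upstream of that gene's start in 10683 cases and beyond its end in 11885. The 9008 nearest genes were often pseudogenes, small RNAs and long non-coding RNAs. Of these genes 2959 were expressed, meaning that RNA reached an rlog of 4.64 in at least 1 library. Counted to protein-coding genes of GENCODE 44 the median distance was 14814 bp, and 9229 intergenic peaks (40.9%) were over 20 kb from any. The label intergenic held for 21717 peaks in that annotation, while 851 (3.77%) overlapped a gene that the table had not paired with them, a lncRNA for 502 and a protein-coding gene for 341. Where a peak's nearest gene is not protein-coding, it is named here by that gene together with the nearest protein-coding gene.

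Against naive cells, 1723 intergenic peaks rose in erCriz0 (7.63%) where 7.00 percent of all peaks did, and 1684 fell (7.46%) against 5.94 percent of all. In erAlec0 3365 rose (14.9%) against 14.1 percent of all peaks, and 2515 fell (11.1%) against 9.41 percent. In erLor0 1614 rose (7.15%) against 7.45 percent, and 2456 fell (10.9%) against 8.82 percent. The share of rises was thus near that of all peaks in each line, and the share of falls was somewhat above it. Falls were less frequent among peaks at gene starts, of which 2.15% fell in erCriz0, with 4.2% in erAlec0 and 3.34% in erLor0. Of the 1618 peaks of 10 kb or more 1.42% fell in erCriz0 and 5.56% in erLor0, again less. In erAlec0 10.1% of these fell, near the share of intergenic peaks and above that of all peaks. Peaks inside genes lay close to the intergenic ones, with 6.59%, 10.3% and 9.72% lower.

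The median change of intergenic peaks was −0.08 in erCriz0, with −0.05 in erAlec0 and −0.08 in erLor0. Peaks at gene starts had medians of 0.29, 0.21 and 0.34, and over all peaks the median was 0.00 in each line. The split between rises and falls depended on the centring, on the limit and on whether 1 peak was taken per stretch. After centring each library on its median over all peaks, which moved the changes by 0.08, −0.02 and 0.10, 62.0% of the changed intergenic peaks were higher in erCriz0 in place of 50.6%, and 52.8% in erLor0 in place of 39.7%. In erAlec0 the share moved from 57.2% to 55.9%. With 1 peak taken from each stretch of neighbouring peaks, the one with the highest mean level, the shares were 76.2%, 67.3% and 55.0%. This choice also favours strong peaks, and the part of level in these shares was not tested. At a limit of 0.58 the shares were 44.2%, 48.6% and 40.6%. Which direction was the more frequent one was thus not fixed in any line.

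**Figure D1:**
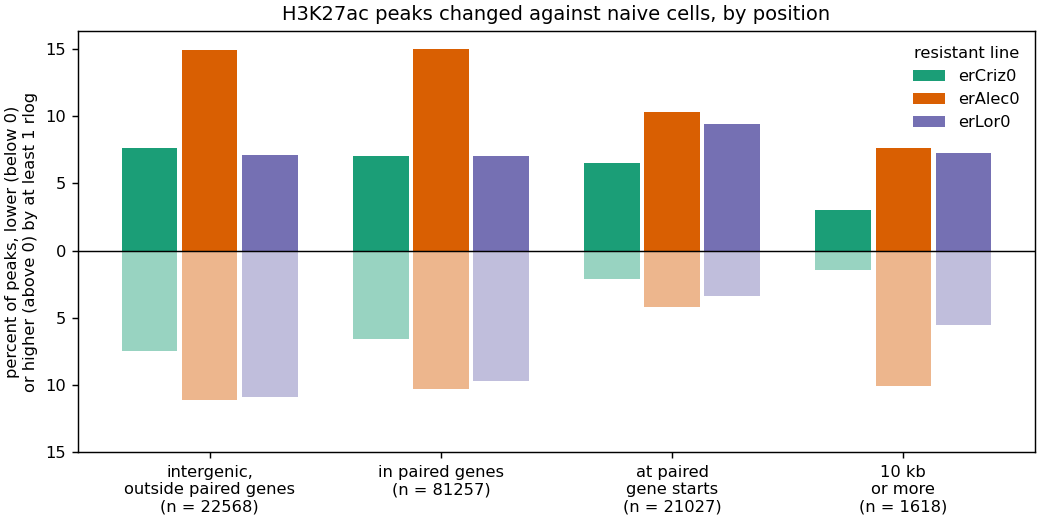
Percent of peaks higher (above 0) or lower (below 0, pale) by at least 1 rlog than naive cells, for 4 position classes of peaks and 3 resistant lines, with 1 library per line. Intergenic peaks reach 14.9% higher and 11.1% lower in erAlec0, and peaks at gene starts are lower in at most 4.2%.

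Large rises were most numerous in erAlec0. A rise of at least 2 was seen in 104 intergenic peaks of erCriz0, 571 of erAlec0 and 106 of erLor0, and a fall of at least 2 in 29, 82 and 86. The rises are 0.461%, 2.53% and 0.47% of intergenic peaks, beside 0.391, 2.03 and 0.386 percent of all peaks, and the falls 0.129%, 0.363% and 0.381%, beside 0.0743, 0.291 and 0.308 percent. More large rises in erAlec0 were therefore also seen over all peaks. Of the large rises 47, 297 and 42 started below an rlog of 3.91 in naive cells. Without reference to naive cells, the 4 values of 1652 intergenic peaks (7.32%) spanned at least 2, where 6.22 percent of all peaks did. The highest value of these was in erAlec0 for 864 peaks (52.3%), in erCriz0 for 546, in erLor0 for 126 and in naive cells for 116. Among all peaks with such a span erAlec0 was highest in 51.8%, so intergenic peaks shared this order with the rest.

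Length and position within the intergenic space went with the changes. Of peaks under 500 bp 4.35% rose in erCriz0 and 7.15% fell. Of those from 2000 to 5000 bp 16.5% rose and 5.56% fell in erCriz0. In erAlec0 20.5% of these longer peaks rose and 15.9% fell, and in erLor0 14.9% and 15.2%. In the longest class, 545 peaks from 5000 bp up, the shares of rises were lower again, at 8.62% in erCriz0, with 14.5% in erAlec0 and 12.7% in erLor0. Of the peaks under 500 bp 35.0% reached an rlog of 3.91, against 98.7% of those from 2000 to 5000 bp, and rlog draws low counts together. The part of this in the order of the shares was not tested. Close to gene starts, 1 to 2 kb upstream, 4.04% rose in erCriz0, with 9.73% in erAlec0 and 5.29% in erLor0. From 10 to 20 kb beyond a gene's end these shares were 8.99%, 16.3% and 7.56%, and 14.1% fell in erLor0 against 8.21% at 1 to 2 kb upstream.

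Falls in erLor0 were more frequent next to lncRNA genes and processed pseudogenes than next to protein-coding genes. Among 6382 peaks whose nearest paired gene was a lncRNA 13.5% fell in erLor0, and among 9513 next to a protein-coding gene 8.94% did. In erAlec0 these shares were 13.3% and 10.3%, and in erCriz0 8.09% and 7.11%. Next to 3402 processed pseudogenes, copies of mRNAs that rarely have a promoter of their own, 12.8% fell in erLor0 and 18.2% rose in erAlec0, against 13.2% that rose in erAlec0 next to protein-coding genes. The share of rises in erAlec0 was alike next to snRNA genes (18.1%) and unprocessed pseudogenes (17.8%).

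The shares differed between chromosomes, and 1 region held many of the rises of erLor0. On chromosome 13 19.8% of 677 intergenic peaks fell in erAlec0 and 20.2% in erLor0, and on chromosome 5 20.2% and 19.9% of 1109. On chromosome 18 16.8% of 422 rose in erCriz0, with 23.0% in erAlec0 and 11.6% in erLor0. On chromosome 1 13.1% of 2393 rose in erLor0. Between 113 and 121 Mb of chromosome 1, where the median of each 1 Mb was at least 0.5 in erLor0, 179 of 239 intergenic peaks rose there, with a median change of 1.39, while the medians were 0.01 in erCriz0 and 0.01 in erAlec0. Without that region 1435 of 22329 (6.43%) rose in erLor0. More copies of the region and more H3K27ac per copy cannot be told apart in these values.

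Most changes stayed past the limit when set against the wide region around them. A peak's region was given by the median change of peaks of other classes in the 5 Mb to each side. Of the rises of erCriz0 81.6% were also at least 1 above their region, and of its falls 73.0% at least 1 below it. In erAlec0 these shares were 81.5% and 75.2%, and in erLor0 73.5% and 78.3%. Regions that themselves moved by at least 1 held 0, 28 and 248 intergenic peaks in the 3 lines. As regional medians were seldom that large, most called peaks pass this comparison almost by construction. It also leaves out neighbouring intergenic peaks, which moved together in some of the stretches described below. The rises were spread over 1255, 1814 and 1066 stretches, where intergenic peaks at most 12.5 kb apart were joined.

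Among the largest single rises of erCriz0, the peak upstream of IGHG4, an immunoglobulin heavy chain constant gene, had an rlog of 6.51 in naive and 9.90 in erCriz0 cells, with 6.59 in erAlec0 and 6.76 in erLor0. IGH constant genes are near-identical copies of each other, so the placing of reads there is uncertain. A peak 20382 bp from SYF2, a splicing factor gene, had 7.07 in naive and 10.36 in erCriz0 cells, with 6.77 in erAlec0 and 6.84 in erLor0. Both were high in erCriz0 alone, with the other 3 libraries within 0.5 of each other.

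The RN7SKP104 peak on chromosome 7 stood 128314 bp from TAC1, which encodes the precursor of substance P. It had an rlog of 3.69 in naive and 6.85 in erCriz0 cells, with 3.74 in erAlec0 and 3.20 in erLor0, again high in erCriz0 only. A peak 9716 bp from PKDCC, a secreted tyrosine kinase gene, had 6.25 in naive and 9.14 in erCriz0 cells, with 6.43 in erAlec0 and 6.16 in erLor0. PKDCC RNA changed by 0.81, 1.06 and 0.36, so its largest rise was in erAlec0, where the peak was 0.18 above naive cells. The RGS4 peak, upstream of a regulator of G protein signalling, had 3.59 in naive and 5.71 in erCriz0 cells, with 3.20 and 3.41 in the other lines.

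The largest rises of erAlec0 were also above naive in erLor0 in many cases. The RPS26P24 peak, 257514 bp from IGFBP7, a secreted IGF binding protein gene, had an rlog of 5.48 in naive and 5.58 in erCriz0 cells, with 9.21 in erAlec0 and 7.45 in erLor0. Beside ANKRD1, a target of YAP and TEAD, a peak 6995 bp away had 5.65 in naive and 5.91 in erCriz0 cells, with 9.30 in erAlec0 and 7.05 in erLor0. In both, naive and erCriz0 cells were alike and erLor0 lay between them and erAlec0. Peaks that were high in erAlec0 alone included ENSG00000227125, 150771 bp from NTM, a cell adhesion gene, at 3.04 in naive and 2.94 in erCriz0 cells, with 6.66 in erAlec0 and 3.65 in erLor0.

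In erLor0 several of the largest rises came from the region of chromosome 1 described above. The Metazoa_SRP peak near VTCN1, which encodes the T cell inhibitory ligand B7-H4, had 6.37 in naive and 7.10 in erCriz0 cells, with 7.79 in erAlec0 and 9.57 in erLor0. A TRIM45 peak had 3.61, 3.82, 5.25 and 6.34 in the same order, and TRIM45 RNA changed by 0.07, 0.03 and 1.40. Away from chromosome 1, a peak 80536 bp from SDK1, a cell adhesion gene, had 6.60 in naive and 6.65 in erCriz0 cells, with 8.51 in erAlec0 and 9.45 in erLor0. A peak 43292 bp from SEC11C, a subunit of signal peptidase, was high in all 3 lines, at 4.61 in naive and 7.16 in erCriz0 cells, with 6.16 in erAlec0 and 7.41 in erLor0.

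The largest fall in both erAlec0 and erLor0 was at 1 peak, 4639 bp from RIMBP2, a gene for a protein of presynaptic active zones. Its rlog was 8.24 in naive and 6.27 in erCriz0 cells, with 5.08 in erAlec0 and 5.31 in erLor0. RIMBP2 RNA was 6.38 in naive cells and changed by −1.13 in erCriz0, with −1.36 in erAlec0 and −1.12 in erLor0, so RNA and H3K27ac were lower in all 3 lines. In the same neighbourhood a peak beyond the end of PIWIL1, a germline piRNA-binding gene, had 9.26 in naive and 8.14 in erCriz0 cells, with 6.52 in erAlec0 and 6.97 in erLor0.

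A second group of falls left erCriz0 near the naive level. The HNRNPA1L3 peak had 8.43 in naive and 8.44 in erCriz0 cells, with 5.54 in erAlec0 and 6.04 in erLor0. The RPL37P21 peak had 7.90, 7.49, 5.55 and 4.97 in the same order. Beyond CDKN2B-AS1, the antisense lncRNA of the CDKN2B cell cycle inhibitor locus, a peak had 5.94 in naive and 4.61 in erCriz0 cells, with 3.20 in erAlec0 and 3.02 in erLor0. It therefore fell in erCriz0 too, by less.

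Falls led by erCriz0 were smaller and fewer. The WDR87 peak had 9.10 in naive and 6.75 in erCriz0 cells, with 9.15 in erAlec0 and 8.42 in erLor0, and was lowest in erCriz0. A peak 545972 bp from CITED2, which encodes a partner of the acetyltransferases CBP and p300, was low in all 3 lines, at 6.90 in naive and 4.49 in erCriz0 cells, with 5.21 in erAlec0 and 4.97 in erLor0. At COL6A1, a collagen VI gene, the peak had 6.97 in naive and 5.62 in erCriz0 cells, with 4.13 in erAlec0 and 4.99 in erLor0, and COL6A1 RNA changed the other way, by 0.56, 0.80 and 0.74.

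**Figure D2:**
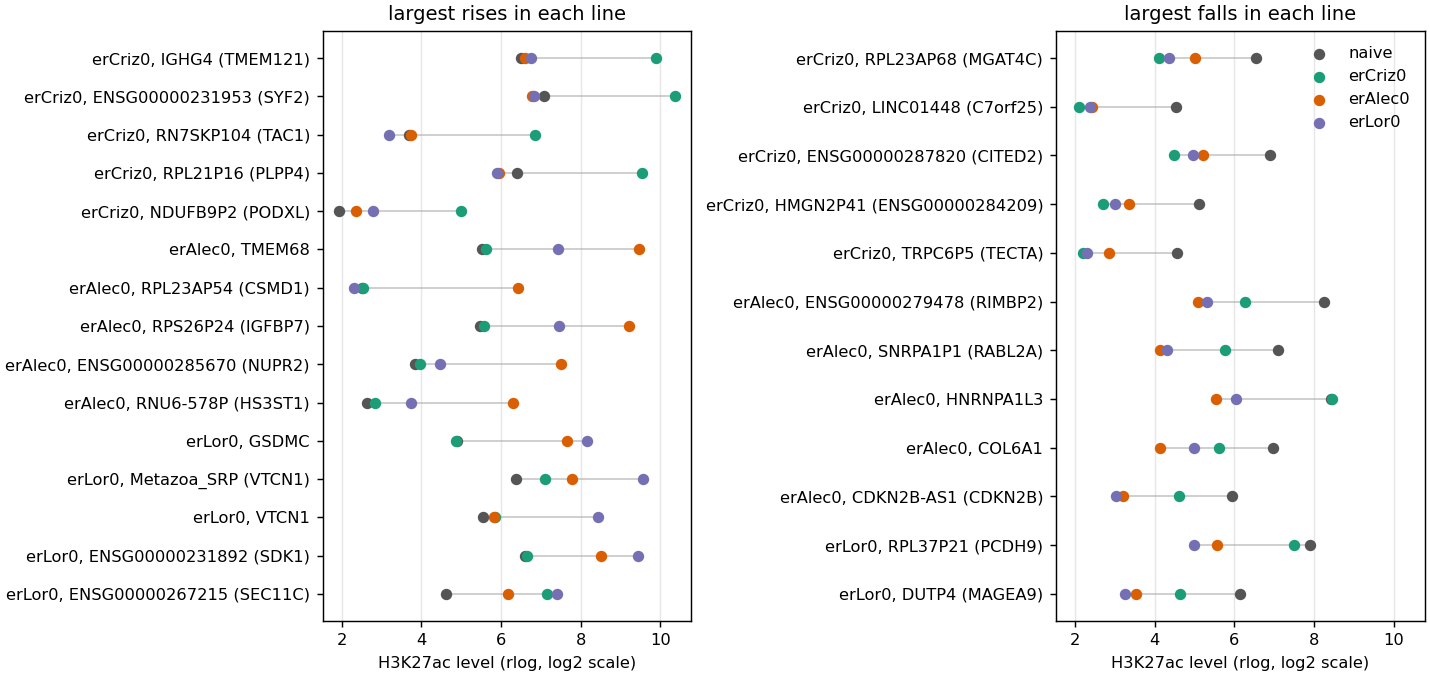
H3K27ac rlog in the 4 libraries for the intergenic peaks with the largest rises (left) and falls (right), each shown once under the line for which it was chosen, with the nearest protein-coding gene in brackets where the nearest paired gene is not one. The rises of erCriz0 stand apart from the other 3 libraries, whereas in 3 of 5 rises of erAlec0 shown erLor0 lies above naive by more than 1.

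The strongest intergenic peaks changed little. The highest mean level was that of the RN7SL44P peak, 15681 bp from S100A6, a calcium-binding protein gene, at 12.48 in naive and 12.19 in erCriz0 cells, with 11.91 in erAlec0 and 12.27 in erLor0. S100A6 RNA changed by 0.30, 1.32 and 0.82 while this peak was slightly lower in each line. A peak 33575 bp from PSMA6, near NFKBIA, the gene for the NF-kB inhibitor IκBα, had 11.86, 11.87, 12.29 and 12.24 in the same order. None of the 10 strongest peaks changed by 1 in any line.

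Motifs were counted in the central 300 bp of each peak on both strands, and a match is a description of letters, not of binding. The 16 motifs were GATA factor AGATAA, AP-1 TGANTCA, TEAD GGAATG, forkhead TGTTTAC, NKX2 CAAGTG, RUNX TGTGGTT, ETS CCGGAAG, CEBP TTGCNNAA, NF-kB GGAATTTCC, HNF1 GTTAATNAT, KLF/SP GGGGCGGGG, NRF1 GCGCANGCG, E-box CACGTG, GRHL AACNGGTT, SOX ACAATGG and the CTCF core CCACNAGGG. TEAD, ETS and NF-kB share the letters GGAA. Intergenic peaks differed from peaks at gene starts in the motifs of promoters: KLF/SP was found in 0.638% against 6.63%, ETS in 1.35% against 5.96%, and NRF1 in 0.208% against 2.94%. They were close to peaks inside genes, where these shares were 0.714%, 1.34% and 0.204%. NKX2, the motif family of the lung factor NKX2-1, was found in 20.2% of intergenic peaks and 14.2% of peaks at gene starts. Over all peaks under 10 kb the shares were 9.69% for AP-1, 15.9% for TEAD, 4.19% for forkhead, 18.7% for NKX2, 14.1% for GATA, 5.21% for RUNX, 2.12% for ETS and 12.5% for CEBP. They were 1.70% for KLF/SP, 0.666% for NRF1, 4.51% for the E-box and 4.04% for SOX, and at most 1.98% for the other 4 motifs. In 35116 promoter windows of 300 bp from RefSeq on GRCh38.p14, KLF/SP was found in 15.7%, ETS in 10.3%, NKX2 in 11.5% and AP-1 in 7.71%.

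Of the 16 motifs AP-1 had the largest excess among rises in erCriz0. It was found in 10.7% of intergenic peaks and in 16.7% of those that rose in erCriz0 (288 of 1723), against 10.1% of those that fell there. In erAlec0 the shares were 10.4% of rises and 11.6% of falls, and in erLor0 9.17% and 11.8%. With 1 peak per stretch the excess over all intergenic peaks grew among the falls, from 0.90 to 2.96 percentage points in erAlec0 and from 1.13 to 4.72 in erLor0, beside 6.35 among the rises of erCriz0. By size of change in erCriz0 the share was 10.1% for changes within 0.5, 12.1% for rises of 0.5 to 1, 16.5% for rises of 1 to 2 and 20.2% for the 104 rises of at least 2. On the side of the falls it stayed between 9.39% and 10.3%. The largest falls of erAlec0 held it in 18.3% of 82 peaks and the largest rises of erLor0 in 3.77% of 106, both small numbers.

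**Figure D3:**
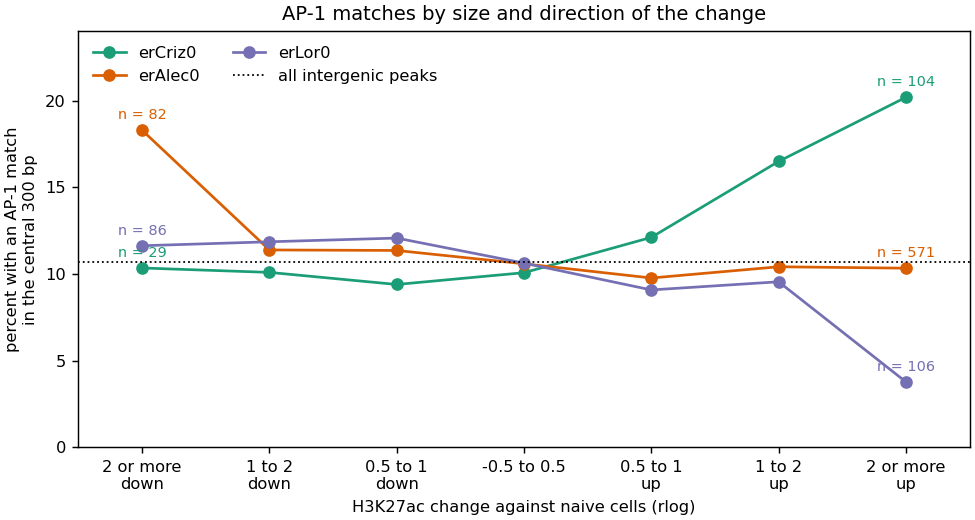
Percent of intergenic peaks with an AP-1 match in the central 300 bp, by size and direction of the H3K27ac change against naive cells, for 3 resistant lines, and over all intergenic peaks (dotted, 10.7%). The line of erCriz0 climbs from 10.1% at changes within 0.5 to 20.2% at rises of at least 2, and the numbers beside the ends give the peaks in the outer classes.

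Both letter forms of the motif took part. The form with C or G in the middle, TGACTCA or TGAGTCA, which is the consensus site of FOS and JUN dimers, was found in 10.9% of the rises of erCriz0 and 6.67% of all intergenic peaks. The form with A or T, TGAATCA or TGATTCA, was found in 6.33% and 4.34%. The RN7SL401P window printed above holds both forms. It belongs to a peak with an rlog of 3.99 in naive and 6.17 in erCriz0 cells, with 3.24 in erAlec0 and 2.93 in erLor0, and the TLR12P peak had 5.34, 7.51, 4.91 and 5.35 in the same order. In the promoter windows the C or G form was found in 4.95% and the A or T form in 2.98%.

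The AP-1 share was not particular to intergenic peaks. Peaks inside genes held the motif in 10.3% of all and 16.1% of those that rose in erCriz0, and peaks at gene starts in 6.35% and 9.16%. The motif was commoner in long, strong and AT-rich peaks. The peaks that rose in erCriz0 had a median of 813 bp, against 457 bp for all intergenic peaks. Those that rose in erLor0 were longer still, at 881 bp, and held the motif in 9.17%. In 3 equal classes of intergenic peaks by GC content the rises of erCriz0 were each time above the class as a whole. The shares were 18.4% against 12.8% in the lowest, 16.9% against 11.2% in the middle and 14.2% against 8.20% in the highest. By mean level the pairs were 11.9% and 9.45%, 16.8% and 10.1%, and 19.6% and 12.6%, and by length 12.6% and 9.56%, 12.3% and 9.74%, and 20% and 12.8%. With the central 200 bp the share among rises in erCriz0 was 3.60 percentage points above that of all intergenic peaks, in place of 6.00. The shorter window also lowered the share of all intergenic peaks, from 10.7% to 7.26%.

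Other motifs moved less. GATA matches were found in 19.1% of the falls of erLor0 and 15.0% of all intergenic peaks, and forkhead matches in 5.82% and 4.05%. These falls were also AT-rich, with a median GC content of 44.3% against 48.0%, and both motifs are rich in A and T. RUNX was found in 7.08% of the rises of erCriz0 and 5.36% of all, and NKX2 in 17.5% and 20.2%.

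Many intergenic peaks lay in clusters. Joining those at most 12.5 kb apart gave 8351 stretches, of which 3460 held 1 peak and 220 held at least 10, with 2871 peaks in these. In the 220 long stretches the median change reached 1 in 1 stretch of erCriz0, 15 of erAlec0 and 4 of erLor0, and fell to −1 or lower in 15, 29 and 34. Medians past the limit were thus more often below than above naive cells in every line. The stretches described below are some of the 10 with most peaks, followed by those with the highest and lowest medians, which were chosen after their values were seen.

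The stretch with most peaks, 33 over chr14:105675187-105776662, lay among IGH constant genes. Its median change was 0.64 in erCriz0, with −0.35 in erAlec0 and −0.17 in erLor0, and 11 of its peaks rose in erCriz0. Among the stretches with the highest medians, a neighbouring one of 10 at chr14:105607789-105638933 had medians of 1.53, 0.02 and −0.14. Reads there are uncertain because the genes are copies of each other.

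Next in size was a stretch of 26 at chr14:35346845-35414841 between PSMA6 and NFKBIA, which stayed level with medians of −0.14, 0.32 and −0.10. Beside SERINC2, 25 peaks at chr1:31438277-31492992 had medians of −0.91 in erCriz0, with −1.17 in erAlec0 and −1.38 in erLor0, while 9, 16 and 17 of them fell. SERINC2 RNA changed by −0.64, 0.67 and −0.15. The fall was not shared by all peaks of the stretch, since 1 peak rose by 1.32 in erAlec0.

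The 23 peaks at chr5:68413292-68461437 had ENSG00000248884 as their nearest paired gene. Their nearest protein-coding gene was PIK3R1, the regulatory subunit of PI3 kinase. These peaks had medians of −0.75, −1.0 and −1.06, and 8, 11 and 13 of them fell. PIK3R1 RNA changed by 0.35, −1.11 and −0.71, so in erAlec0 and erLor0 both were lower. Between WRNIP1 and SERPINB1, a gene for an inhibitor of neutrophil proteases, 22 peaks at chr6:2789463-2831862 had medians of −1.0, −1.13 and −1.12. SERPINB1 RNA changed by 1.57 in erCriz0, with 0.70 in erAlec0 and −0.10 in erLor0.

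Among the stretches with the lowest medians, 15 peaks at chr12:89311096-89342455 lay near DUSP6, the gene of a phosphatase that feeds back on ERK. Their medians were −1.07 in erCriz0, with −1.15 in erAlec0 and −1.49 in erLor0, and 8, 10 and 13 peaks fell, where the region had −0.28, −0.38 and −0.58. DUSP6 RNA, at 11.86 in naive cells, changed by 0.79, 1.17 and 0.72. The peaks and the RNA of the nearest protein-coding gene thus had opposite signs in each line, with the RNA taken after growth without inhibitor. Beside RAP2A, a small GTPase gene, 14 peaks at chr13:97470392-97498400 had medians of −1.23, −1.56 and −1.30, with RNA changes of 0.86, 0.99 and 0.85.

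At chr6:63222016-63271988 near LGSN, 14 peaks had medians of −0.61, −1.69 and −1.90, and all 14 fell in erAlec0. Rising stretches were rarer. All 18 peaks of a stretch at chr8:33211342-33246032 rose in erAlec0. Their nearest paired gene was the pseudogene ENSG00000253993. The nearest protein-coding gene was FUT10, a fucosyltransferase gene, 150124 bp from 1 of these peaks. The medians of the stretch were 0.09, 1.78 and 0.94, and FUT10 RNA changed by 0.12, −0.01 and 0.14. Near STAT4, a transcription factor of cytokine signalling, 10 peaks at chr2:191165443-191192429 had medians of −0.06, 1.51 and 0.58, while STAT4 RNA changed by 1.01, 0.13 and 0.48.

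At VTCN1 15 of 15 peaks at chr1:117215760-117264644 rose in erLor0, with medians of 0.13, 0.41 and 2.16, where the region had a median of 1.33 in erLor0. VTCN1 RNA changed by −0.09, −0.05 and 0.82. The stretch beside TENT5C, a poly(A) polymerase gene, lies in the same part of chromosome 1. It had a median of 1.09 in erLor0 with an RNA change of 1.62, and its median was below that of its region, 1.34.

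**Figure D4:**
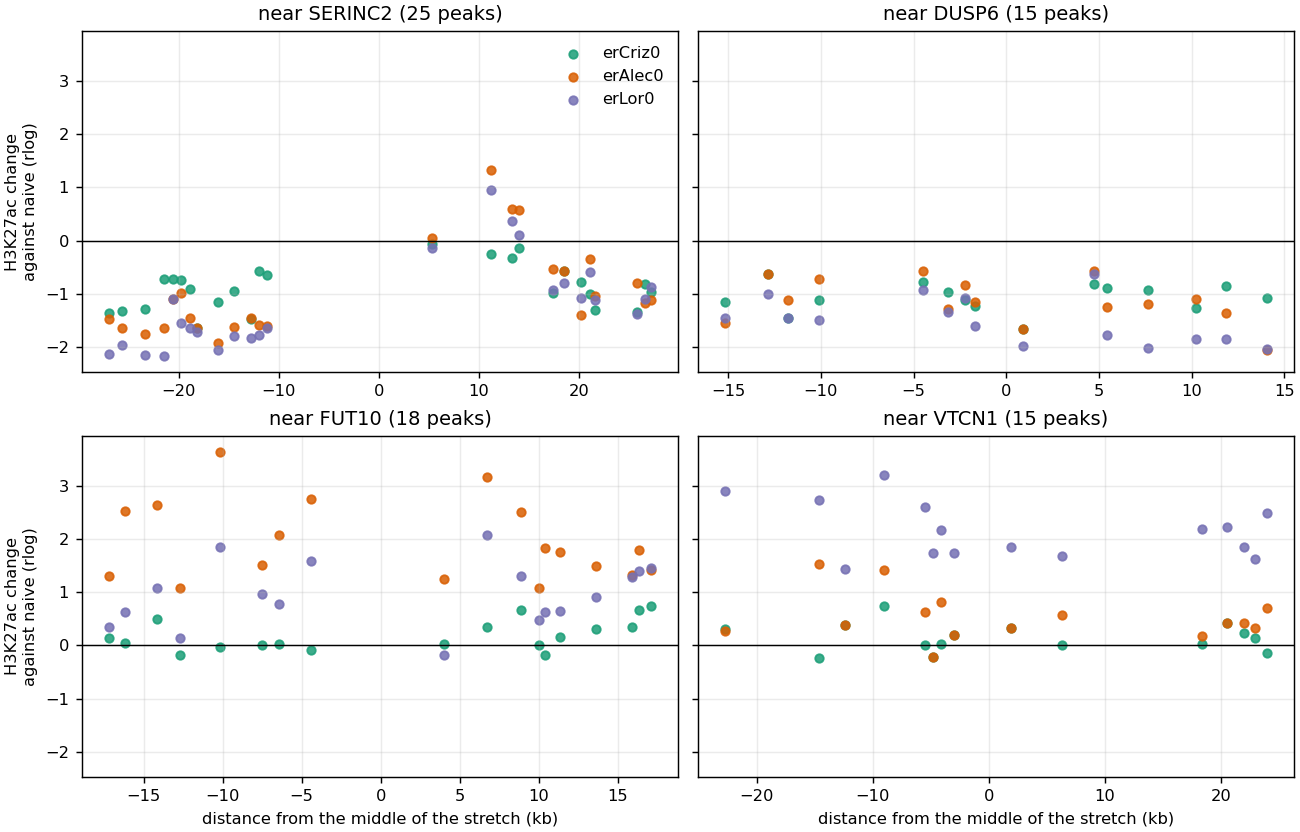
H3K27ac change against naive cells of each intergenic peak in 4 stretches, by distance in kb from the middle of the stretch, for 3 resistant lines. Stretches are named by the nearest protein-coding gene, and FUT10 lies 150124 bp from 1 of the peaks named by it. All 18 peaks of the FUT10 stretch are above 1 in erAlec0, all 15 near VTCN1 are above 1 in erLor0, and those near DUSP6 lie below 0 in all 3 lines.

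RNA of the nearest paired gene moved little on the whole. Taken over all nearest genes, expressed or not, the median RNA change was 0.00 for the rises and for the falls of each line, where 2959 of the 9008 genes were expressed. Among expressed nearest genes of peaks that rose the median was 0.15 in erCriz0 (298 genes), with 0.03 in erAlec0 (459) and 0.07 in erLor0 (302), against −0.01, 0.03 and 0.02 for all intergenic peaks. For peaks that fell it was −0.01, 0.02 and −0.02.

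Changed genes were found next to rises and falls. Of the expressed genes nearest to rises, 7.38% rose in erCriz0, where 2.65 percent of all expressed genes did and 3.85% of those nearest to any intergenic peak, and 1.68% fell against 1.65 percent of all expressed genes. In erAlec0 4.58% rose against 2.46 percent of all expressed genes and 3.55% of those nearest to any intergenic peak, and 0.436% fell against 2.07 percent. In erLor0 5.63% (17 of 302) rose against 1.10 percent of all and 1.82% of those nearest to any intergenic peak, and 0.331% fell against 0.740 percent. The value of erLor0 rested on the region of chromosome 1, where 12 of 19 genes rose, and without it 5 of 283 did (1.77%), near the share next to any intergenic peak, with a median of 0.06. Next to falls, 5.49% of genes rose and 4.12% fell in erAlec0, 3.93% and 3.02% in erCriz0, and 2.21% and 2.76% in erLor0. Both directions were thus above the share of all expressed genes in each line. Next to any intergenic peak 3.55% rose and 1.86% fell in erAlec0, 3.85% and 2.16% in erCriz0, and 1.82% and 1.05% in erLor0. The shares that rose next to falls in erCriz0 and erLor0 were near these.

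**Figure D5:**
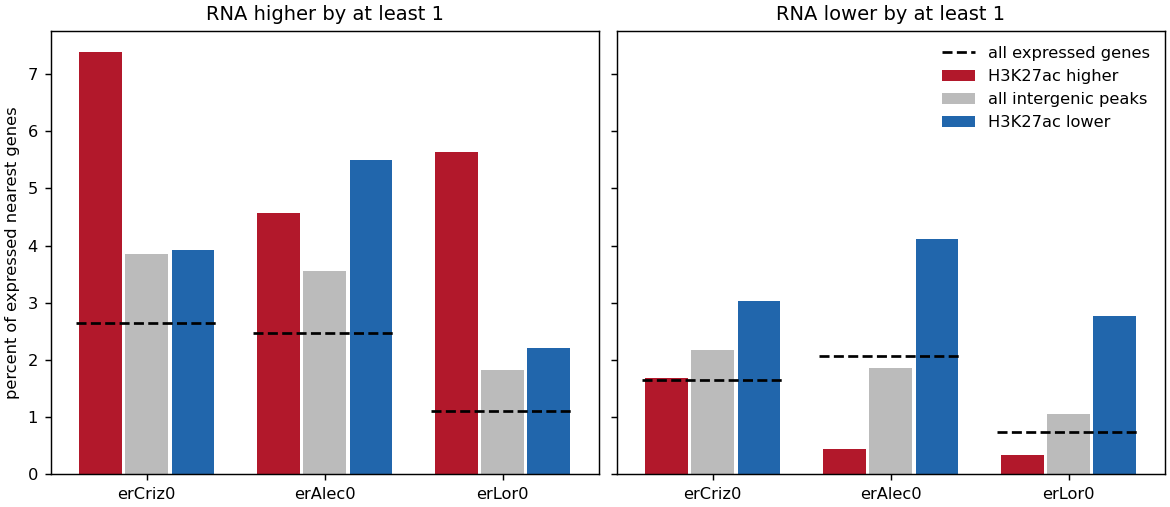
Percent of expressed nearest genes whose RNA was higher (left) or lower (right) by at least 1 rlog than in naive cells, for intergenic peaks that rose, for all and for those that fell, with the percent over all expressed genes as dashed lines. Next to rises 7.38% of genes were higher in erCriz0 and 5.63% in erLor0, above the dashed lines at 2.65% and 1.10%, and without the region of chromosome 1 the share in erLor0 was 1.77%.

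Pairs in which RNA and H3K27ac rose together in erCriz0 were led by PLAT, the gene of tissue plasminogen activator. An intergenic peak there had an rlog of 4.53 in naive and 5.90 in erCriz0 cells, with 5.42 in erAlec0 and 4.75 in erLor0, and PLAT RNA changed by 4.12, 2.07 and 0.33. A second PLAT peak had 5.49, 6.79, 6.64 and 5.60, so both peaks followed the order of the RNA. At TCN1, which encodes a vitamin B12 carrier of secretions, the peak had 4.39 in naive and 6.17 in erCriz0 cells, with 3.96 in erAlec0 and 4.35 in erLor0. TCN1 RNA changed by 2.66, 1.03 and 0.99, and the peak was high in erCriz0 alone.

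In erAlec0 the peak beside TCHHL1, a trichohyalin-like epidermal gene, had 4.77 in naive and 4.96 in erCriz0 cells, with 7.18 in erAlec0 and 5.16 in erLor0, and its RNA changed by 0.06, 3.16 and 0.20. HOPX, a homeodomain protein of alveolar cells, gave 5 intergenic peaks that rose in erAlec0. Its peak 10038 bp upstream had 5.11 in naive and 4.77 in erCriz0 cells, with 6.54 in erAlec0 and 6.46 in erLor0, and HOPX RNA changed by −0.26, 1.99 and 2.40. At FOXQ1, a forkhead factor gene, a weak peak had 2.42, 1.97, 3.66 and 3.24, below an rlog of 3.91 in each library. FOXQ1 RNA changed by 1.02, 2.05 and 1.09.

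In erLor0 4 of the 5 peaks chosen in this way for their RNA rise, at NOTCH2, MAB21L3, NBPF8 and SEC22B, lie in the region of chromosome 1. The NOTCH2 peak had 6.54 in naive and 7.55 in erCriz0 cells, with 6.25 in erAlec0 and 8.26 in erLor0, and RNA of this Notch receptor gene changed by 1.01, 0.56 and 1.71. NBPF8 is 1 of a family of near-identical copies, and its values are uncertain.

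Pairs that fell together were led by PRSS2, a trypsinogen gene with near-identical neighbours, whose RNA changed by −1.86, −3.51 and −3.07. Its peak had 5.16 in naive and 6.49 in erCriz0 cells, with 3.74 in erAlec0 and 3.67 in erLor0, and was thus higher in erCriz0 although the RNA fell there. SULF2, a heparan sulfate sulfatase gene, had 5.82, 6.66, 4.45 and 5.05 at 1 of its peaks, above naive cells in erCriz0 as well, with RNA changes of −2.06, −2.24 and −1.97. RGS17, another regulator of G protein signalling, had 7.26, 8.33, 5.82 and 5.98 at its peak, with RNA changes of 0.68, −1.39 and −1.15 that followed it in each line.

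At ZNF608, a zinc finger gene, the peak had 9.97 in naive and 10.23 in erCriz0 cells, with 8.30 in erAlec0 and 9.0 in erLor0, and its RNA changed by −0.11, −1.44 and −0.61. Among the peaks that fell with their gene in erCriz0, that of IGFBP2 was weak and that of SLC16A5 stronger. IGFBP2, which encodes a secreted IGF binding protein, had 3.87 in naive and 2.30 in erCriz0 cells, with 2.56 in erAlec0 and 2.50 in erLor0, and its RNA changed by −1.90, 0.45 and 1.10. The SLC16A5 peak, at a monocarboxylate transporter gene, had 5.68, 4.52, 5.25 and 5.36, with RNA changes of −1.42, 0.01 and −0.02.

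Genes of resistance-related groups had few intergenic peaks of their own. The lists were set beside 6 intergenic peaks of housekeeping genes, whose medians were −0.56 in erCriz0, with −0.07 in erAlec0 and −0.38 in erLor0, and of which 1 fell, at ACTB in erCriz0. All list medians below are to be read beside these and beside −0.08, −0.05 and −0.08 over all intergenic peaks, and the counts beside the 7.63%, 14.9% and 7.15% of these that rose and the 7.46%, 11.1% and 10.9% that fell. For receptor tyrosine kinases 9 peaks at 6 of 30 genes had medians of −0.12, 0.70 and 0.10, with 0 falls and with rises in erAlec0 (2) and erLor0 (1). The rises in erAlec0 were 2 peaks upstream of FGFR3, a fibroblast growth factor receptor gene. The stronger had 5.15 in naive and 4.62 in erCriz0 cells, with 6.30 in erAlec0 and 5.66 in erLor0, and FGFR3 RNA changed by −0.35, 0.38 and 0.40.

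ERK feedback and output genes had 50 intergenic peaks at 13 genes, of which 1 rose in each line and 3, 11 and 9 fell. The share that fell was below that of all intergenic peaks in erCriz0 and above it in erAlec0 and erLor0. Besides the DUSP6 stretch, falls were seen downstream of SPRY1, an inhibitor of receptor signalling, where 1 of the peaks had 10.10 in naive and 10.37 in erCriz0 cells, with 8.90 in erAlec0 and 9.10 in erLor0. SPRY1 RNA changed by −0.38, −0.15 and −0.47. At PHLDA2, a growth regulator gene, the peak had 5.33, 4.75, 4.12 and 4.28 while the RNA changed by −0.34, 1.42 and 0.88.

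For AP-1 and TEAD/YAP genes 31 peaks at 12 genes had medians of −0.69, −0.58 and −0.64, and 5 fell in each line, a larger share than over all intergenic peaks. BATF gave the only rise, in erAlec0, and its RNA was near 0 in all libraries. The 4 peaks upstream of MAFK, a small MAF factor gene that pairs with AP-1 related proteins, were lower in each line, the strongest with 6.89 in naive and 5.73 in erCriz0 cells, with 5.61 in erAlec0 and 5.89 in erLor0. MAFK RNA changed by −0.07, 1.05 and 0.48. A peak downstream of CCN2, a matricellular target of YAP, had 6.10, 5.23, 5.14 and 4.68, and CCN2 RNA changed by −0.54, 0.45 and −0.33. At FOSL1, an AP-1 subunit gene, the peak that fell in erLor0 was weak, with 3.55 in naive and 2.32 in erLor0 cells.

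EMT and mesenchymal genes had 17 intergenic peaks at 4 genes, with 0 rises and 5, 5 and 6 falls, a share of falls above that of all intergenic peaks in each line. A TGFBI peak, at a gene for an extracellular matrix protein, had 7.13, 6.70, 6.64 and 6.02, and the RNA changed by −0.32, −0.63 and −0.23.

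Epithelial and lung lineage transcription factors had 39 peaks at 10 genes, with 0, 8 and 3 rises in the 3 lines and 1, 6 and 6 falls. The rises in erAlec0 included the 5 HOPX peaks and 2 at ID3, an inhibitor of bHLH factors. The stronger ID3 peak had 4.87 in naive and 4.74 in erCriz0 cells, with 6.63 in erAlec0 and 5.14 in erLor0, and ID3 RNA changed by −1.30, 0.02 and 0.12. The falls included 5 peaks downstream of TP63, the basal cell factor. At 1 of them the rlog was 7.54 in naive and 6.09 in erCriz0 cells, with 5.88 in erAlec0 and 5.60 in erLor0, and TP63 RNA changed by −0.01, 0.77 and −0.16. At EHF, an epithelial ETS factor gene, 1 of 6 peaks fell in erAlec0. It had 9.09, 9.51, 7.73 and 8.28, with RNA changes of 0.76, −0.05 and −0.27.

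Airway secretory and epithelial products had 35 peaks at 13 genes, with 2, 0 and 0 rises and 2, 9 and 6 falls. The share of falls was below that of all intergenic peaks in erCriz0 and above it in the other lines, and 7 of the 9 falls in erAlec0 were at MUC5AC, a gel-forming mucin gene. The strongest had 9.20 in naive and 9.53 in erCriz0 cells, with 7.48 in erAlec0 and 8.59 in erLor0, while MUC5AC RNA changed by 0.09, 0.67 and 0.73. Upstream of SLC34A2, a phosphate transporter of alveolar type II cells, a peak had 7.95, 7.73, 6.79 and 6.92, and the RNA changed by 5.62, 1.07 and 0.46. The RNA of this gene rose most in erCriz0, the line in which this peak was 0.22 below naive cells. The median change of its 2 intergenic peaks there was −0.28.

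Cytokines and growth factors had 44 peaks at 11 genes, with 1, 5 and 1 rises and 6, 4 and 8 falls. The rises in erAlec0 were 3 weak peaks at CCL2, 1 at HBEGF, an EGF receptor ligand gene, and 1 at VEGFA, the angiogenic growth factor. This VEGFA peak, 1 of 19 there, had 7.95 in naive and 7.05 in erCriz0 cells, with 9.36 in erAlec0 and 8.25 in erLor0. Over the 19 peaks the median change was −0.54 in erCriz0, with 0.37 in erAlec0 and 0.17 in erLor0, and 2 fell in erCriz0. VEGFA RNA changed by 0.56, 0.42 and 0.19. The rise in erCriz0 was at TGFA, another EGF receptor ligand gene, at 7.49 in naive and 8.62 in erCriz0 cells, with 7.38 in erAlec0 and 7.42 in erLor0, and RNA changes of 0.13, −0.27 and −0.31. At CXCL2, a neutrophil chemokine gene, the strongest of 5 peaks that fell had 6.83, 5.66, 5.65 and 5.72, whereas CXCL2 RNA changed by 0.36, 1.95 and 1.00. At CXCL8, another neutrophil chemokine gene, 1 of 2 peaks had 6.5, 5.36, 6.31 and 6.28, and the RNA changed by −0.44, 2.74 and 1.56.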

How the data were processed

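H3K27ac ChIP-seq and RNA-seq of naive H3122, erCriz0, erAlec0 and erLor0 cells were compared, with 1 library of each kind per line, and samples were grouped by the labels. The deposited values are rlog values on a log2 scale, which the authors made with DESeq2 from featureCounts reads over merged MACS2 peaks and, for RNA, from HTSeq-count reads after HISAT2 alignment. The submitters' processing notes name BWA and bcl2fastq, and versions are not given in the sources used here. The table pairs 126470 peaks on hg38 with 43869 genes within 20 kb, in 295240 rows. Read totals are not part of it, so the depth is unknown and no interval was given. The deposited table also holds a correlation score of each peak with its gene and its p-value, computed by the authors, and neither was used.

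Intergenic peaks were found by length and position, before any value was used. Members and gene lists were chosen with earlier results of these data known. Changes were differences of rlog from naive cells, called at 1. The peaks named are, for each line, the 8 largest rises and falls among peaks reaching an rlog of 3.91 (1 per nearest gene). They are also the 10 highest, the 10 stretches with most peaks, and the 5 up and 5 down with the largest RNA change in the same direction. Peaks nearest to genes of fixed lists that changed by 1 are named as well. The text describes a choice of these. Windows with an AP-1 match were shown for large rises in erCriz0 and were chosen after values were seen. Gene types and distances came from GENCODE 44, to which 43641 gene IDs matched, sequences from hg38, and promoters from RefSeq (GRCh38.p14). Other limits, centrings, filters, windows, nearest genes and regional corrections were tried. Counting was checked on simulated data. Python 3.11.15, pandas 2.3.3, numpy 2.4.6, scipy 1.17.1, pysam 0.24.0 and matplotlib 3.10.9 were used.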

Additional observations from a re-analysis of the deposited data

How the results depend on the processing

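Of 433 values under other settings, 379 fixed at the start and 54 added after the data were seen, 379 stayed within their margin and 54 moved. No paired analysis was possible because each line has 1 library, and no library could be left out. With a limit of 0.58, up and down counts were 3980 and 5020 (erCriz0), 5739 and 6058 (erAlec0) and 4014 and 5872 (erLor0), and with a limit of 2 they were 104 and 29, 571 and 82, and 106 and 86. They were 1096 and 988, 2130 and 1493, and 979 and 1515 of 12747 peaks at least 5 kb from paired genes. With 1 peak per stretch they were 1045 and 326, 1518 and 738, and 845 and 691 of 8351, so that in erCriz0 the share of rises went from 7.63% to 12.5% while the share of falls became smaller. Peaks written with at most 6 decimals gave 744 and 838, 1471 and 1306, and 604 and 1309 of 10265, and the others 979 and 846, 1894 and 1209, and 1010 and 1147. Among the 14195 peaks reaching an rlog of 3.91, 1078 fell in erCriz0. The more frequent direction turned in erCriz0 and erAlec0 at 0.58, in erCriz0 with at most 6 decimals, and in erLor0 at 2, after centring and with 1 peak per stretch. The median change turned from negative to positive after centring in erCriz0 (0.0023) and erLor0 (0.023), and with 1 peak per stretch, a setting added later, in erCriz0 (0.11), erAlec0 (0.040) and erLor0 (0.024). The median RNA change next to rises in erCriz0, 0.00 over all nearest genes, was 0.15 over expressed ones, 0.13 over the nearest expressed paired gene and 0.12 over the nearest expressed protein-coding gene. The AP-1 excess among rises in erCriz0, 6.00 percentage points over all intergenic peaks, was 3.60 in the central 200 bp. There the share of all intergenic peaks was itself lower, at 7.26% in place of 10.7%. The excess was 4.24 for the C or G form and 1.99 for the A or T form. With 1 peak per stretch the AP-1 excess was −1.34 for rises and 2.96 for falls in erAlec0, and 4.72 for falls in erLor0. Among peaks reaching an rlog of 3.91 the excess among falls in erCriz0 was −0.85 for forkhead, −0.99 for ETS and −0.52 for KLF/SP. It was −0.57 for KLF/SP among falls in erAlec0 and −0.25 for NRF1 among rises in erAlec0. Beyond the smaller sets these settings leave, the causes were not tested.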
